A study of Mus musculus with 7 samples.

Results

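miR-28a and miR-151 are 2 microRNA (miRNA) hairpins, each of which gives a 5p and a 3p strand, or arm. Their 4 mature arms, mmu-miR-28a-5p, mmu-miR-28a-3p, mmu-miR-151-5p and mmu-miR-151-3p (written below without the mouse prefix), were chosen by name from the 1966 mature miRNAs in the deposited counts. All 4 were among the 450 miRNAs that passed the filter on low counts. The study compared small RNAs of normal hepatocytes and hepatocytes mutant for ALAS, 5-aminolevulinate synthase, which starts heme synthesis. WT gave 3 libraries and ALAS12-KO, the ALAS1/2 mutant of the series, gave 4. Both genotypes carry the treatment label TMX, an abbreviation left unexplained in them. Neither age nor strain is in the labels used here, nor what drives the mutation. The cells came from collagenase-perfused liver by low-speed centrifugation, which enriches hepatocytes without removing every other cell. The arms were proposed with results of this comparison of genotypes in view, so their levels, fold changes and arm ratios are given as a description, with no test.

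A miRNA hairpin is cut by Drosha and then by Dicer into a duplex, and an Argonaute protein keeps 1 strand of it as the guide. The guide pairs with messenger RNAs mainly through its seed, bases 2 to 8 from the 5′ end, and the other strand is mostly degraded. The ratio of the arms is a readout of the strands counted. Since both arms are counted in the same library, it does not depend on how libraries are scaled. miR-28 and miR-151 are related hairpins that arose from LINE-2 repeats and lie in introns of protein-coding genes. Lpp, the host of Mir28a, encodes a LIM-domain protein of focal adhesions. Ptk2, the host of Mir151, encodes focal adhesion kinase. miR-708 belongs to the same family.

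The sequences of the miR-28a arms and of their relatives are shown because the seed sets which miRNAs could act on the same targets and which could share reads. Capitals mark the seed, and the sequences are from RefSeq on GRCm38.p6.
miR-28a-5p: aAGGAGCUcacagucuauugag
miR-708-5p: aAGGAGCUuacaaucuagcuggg
miR-28b: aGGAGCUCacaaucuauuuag
miR-28a-3p: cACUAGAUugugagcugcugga
miR-708-3p: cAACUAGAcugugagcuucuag
miR-28a-5p and miR-708-5p have the same seed, and no other mature mouse miRNA of the sequence table has it. They agree at 16 of 22 bases, with the substitutions C9U, G13A, U18G, U19C, G20U and A21G, counted from 1 at the 5′ end of miR-28a-5p. miR-28b starts 1 base later than miR-28a-5p and matches it at 19 of 21 bases, the exceptions being G13A and G20U, so its seed is shifted by 1 base. The 3p arms of miR-28a and miR-708 match at 17 of 21 aligned bases with a shift of 1 base, and their seeds differ. No mature mouse miRNA in the table shares the seed of miR-28a-3p.

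Mir28a lies on the plus strand of chromosome 16 at 24827855 to 24827940 (GRCm38), in an intron of Lpp on the same strand. Its 5p arm covers 24827868 to 24827889 and its 3p arm 24827908 to 24827929. Mir151 lies on the minus strand of chromosome 15 at 73254815 to 73254882, in an intron of Ptk2 on the same strand and, on the opposite strand, in an intron of the antisense gene 1700085D07Rik. Of the relatives, Mir708 lies in an intron of Tenm4 and Mir28c in an intron of Samd12.

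The relatives were almost unseen in these hepatocytes. miR-708-5p had 8 reads over the 7 libraries, from 0 to 3 in each. miR-708-3p had 1 read in WT replicate 1 and 0 elsewhere, and miR-28c had 0 to 2 reads per library. miR-28b had 0 reads in all 7 libraries. A count of 0 allows up to 3 reads, which is a level of 0.137 to 0.389 CPM (reads per 1e6 miRNA reads) depending on the library, for counting error only. None of the 4 relatives passed the filter, so no fold change is given for them. The reads counted for miR-28a-5p were 107 to 618 per library, far above those of any of these 4 relatives. This does not cover the related hairpin miR-151, whose 5p arm had 553 to 1345 reads per library. The sequences used here held none for miR-151, so reads that its arms could share with miR-28a were not examined.

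The libraries held 7719180 to 21962191 miRNA reads. The 7 hepatocyte markers took 63.4% to 66.2% of miRNA reads in WT and 60.7% to 69.3% in ALAS12-KO, and all 7 had a positive log2 fold change. miR-122-5p was the most abundant of them. Of 22 markers of other cells 21 had a negative log2 fold change, and 0 of all 29 markers were at 0 in any library. These fold changes are on the TMM scale described below, on which 252 of all 450 tested miRNAs were positive and 198 negative. Endothelial markers (2) took 3.56% to 5.25% in WT and 1.10% to 3.65% in ALAS12-KO, leukocyte markers (6) 0.801% to 1.08% and 0.293% to 0.977%, and mesenchymal markers (5) 0.416% to 0.697% and 0.156% to 0.573%. Cholangiocyte markers (5) took 0.0139% to 0.0243% in WT and 0.00544% to 0.0105% in ALAS12-KO, and red cell markers (4) 0.00205% to 0.00272% and 0.000911% to 0.00203%. ALAS12-KO replicate 1 held the lowest level of 19 of the 22 markers of other cells. Fewer cells of a type and less RNA per cell cannot be told apart in these bulk samples, and the part of other cells in the values below was not tested.

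miR-28a-5p, the less abundant arm of its hairpin, was nearly constant in WT and spread widely in ALAS12-KO. It stood at 14.4, 14.8 and 13.9 CPM in WT replicates 1 to 3, from 231, 325 and 107 reads. In ALAS12-KO replicates 1 to 4 it stood at 16.5, 15.4, 36.2 and 27.5 CPM, from 217, 155, 618 and 451 reads. All 4 ALAS12-KO libraries were above WT, but replicates 1 and 2 lay just above the highest WT library, while replicates 3 and 4 lay far above it. The means were 14.4 ± 0.471 CPM (SD, n = 3) and 23.9 ± 9.86 CPM (SD, n = 4). With TMM scaling, which sets libraries to a common level using most miRNAs rather than the read total, the CPM values were 13.3, 14.6 and 12.3 in WT and 20.4, 17.5, 32.7 and 26.8 in ALAS12-KO. On that scale replicates 1 and 2 stood further above WT, and replicates 3 and 4 were again the highest. The log2 fold change with TMM was 0.86 ± 0.25 (SE), the 20th highest of the 450 tested miRNAs, and ranged from 0.62 without ALAS12-KO replicate 3 to 0.97 without ALAS12-KO replicate 2. On library totals alone it was 0.74 ± 0.32 (SE).

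miR-28a-3p, the more abundant arm, was highest in other libraries. It stood at 59.3, 55.2 and 58.7 CPM in WT and at 68.0, 66.8, 56.2 and 60.8 CPM in ALAS12-KO. Replicates 1 and 2 of ALAS12-KO were the highest of all 7 libraries, replicate 3 was inside the WT range, and the groups overlapped. The means were 57.7 ± 2.24 CPM (SD, n = 3) and 63.0 ± 5.48 CPM (SD, n = 4), and the log2 fold change with TMM was 0.33 ± 0.21 (SE). The TMM-scaled CPM values were 54.7, 54.3 and 52.1 in WT and 84.3, 76.0, 50.8 and 59.2 in ALAS12-KO. On that scale replicate 3 was below every WT library, and the spread of ALAS12-KO was wider, with a coefficient of variation of 22.7% against 8.71% on library totals. On library totals it was 0.12 ± 0.13 (SE), and without ALAS12-KO replicate 1 it was 0.18 ± 0.18 (SE) with TMM.

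miR-151-5p, the more abundant arm of miR-151, gave overlapping groups. It stood at 56.9, 61.2 and 71.6 CPM in WT and at 47.3, 57.0, 68.9 and 53.3 CPM in ALAS12-KO. The lowest library was ALAS12-KO replicate 1 and the highest WT replicate 3. Its means were 63.2 ± 7.59 CPM (SD, n = 3) and 56.6 ± 9.12 CPM (SD, n = 4). The log2 fold change was 0.02 ± 0.17 (SE) with TMM and −0.16 ± 0.17 (SE) on library totals, so its sign turned with the scaling.

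miR-151-3p, the rarest of the 4 arms, was high in the same ALAS12-KO libraries as miR-28a-5p. It stood at 7.55, 5.69 and 7.13 CPM in WT, from 121, 125 and 55 reads. In ALAS12-KO it stood at 6.38, 3.76, 13.5 and 10.4 CPM, from 84, 38, 230 and 170 reads. ALAS12-KO replicates 3 and 4 were above every WT library and replicate 2 was below every WT library, so the ALAS12-KO group reached past WT on both sides. The means were 6.79 ± 0.974 CPM (SD, n = 3) and 8.49 ± 4.28 CPM (SD, n = 4), and the log2 fold change with TMM was 0.47 ± 0.34 (SE). It was 0.18 ± 0.32 (SE) without ALAS12-KO replicate 3 and 0.66 ± 0.25 (SE) without ALAS12-KO replicate 2.

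**Figure D1:**
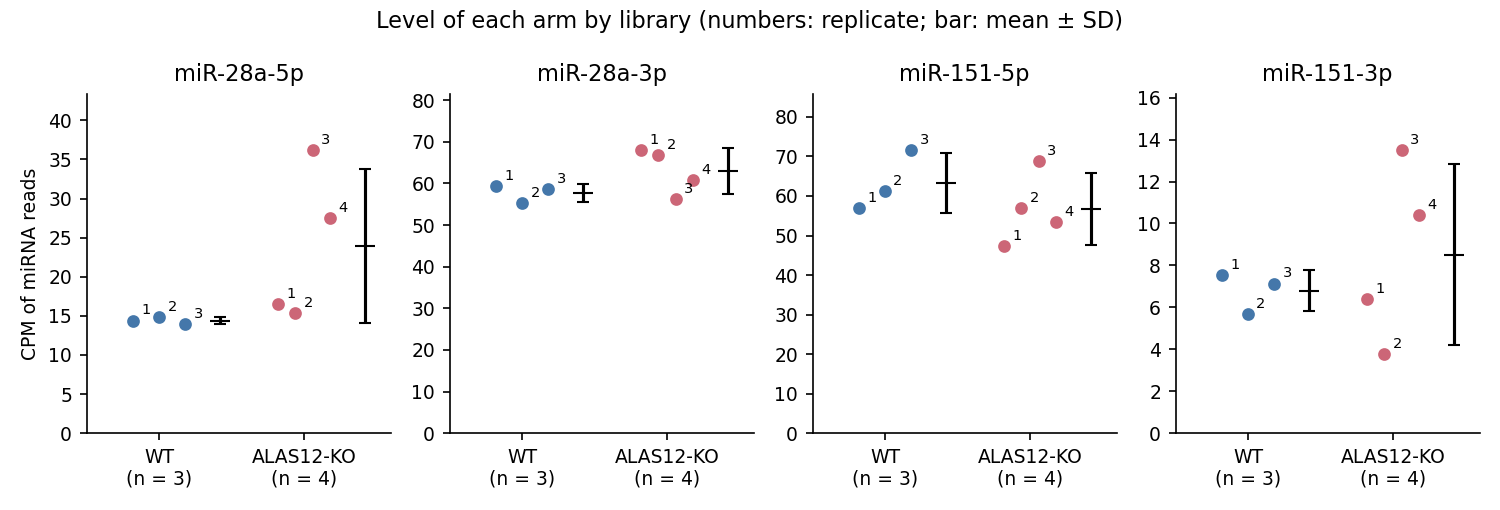
Level of each arm in CPM of miRNA reads, 1 point per library with its replicate number, and mean ± SD per genotype (WT n = 3, ALAS12-KO n = 4). miR-28a-5p and miR-151-3p are highest in ALAS12-KO replicates 3 and 4, at 36.2 and 27.5 CPM and at 13.5 and 10.4 CPM, while miR-28a-3p and miR-151-5p are not.

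Across all miRNAs the quasi-likelihood test of edgeR called 0 of 450 at an adjusted p of 0.05 (0%), with 84 at unadjusted p under 0.05, so 0 of the 4 arms were called. On library totals edgeR called 2 of 450 (0.444%). DESeq2 called 22 of 450 (4.89%), of which 15 were higher in ALAS12-KO, and miR-28a-5p was 1 of the 22. limma-voom called 0 of 450 (0%). Since the arms were proposed with this comparison in view, nothing is read from these calls. miR-28a-5p was the only 1 of the 4 arms whose groups did not overlap, on library totals and with TMM. On library totals 24 of 450 miRNAs (5.33%) had all ALAS12-KO libraries above WT and 69 (15.3%) had them all below, 93 (20.7%) in all. With TMM, 49 (10.9%) were above and 42 (9.33%) below, 91 (20.2%) in all. The median log2 fold change of the 4 arms was 0.40, against 0.06 for all 450. Nothing is read from that difference either, since the arms were proposed with this comparison in view.

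The sum of both arms gives the level of each hairpin's products whichever arm they came from. For miR-28a it was 73.8, 70.0 and 72.5 CPM in WT and 84.5, 82.1, 92.4 and 88.3 CPM in ALAS12-KO. All 4 ALAS12-KO libraries were above WT, and the means were 72.1 ± 1.93 CPM (SD, n = 3) and 86.8 ± 4.49 CPM (SD, n = 4). Of the 130 hairpins with both arms tested, 9 (6.92%) had sums above WT in every ALAS12-KO library on library totals and 23 (17.7%) with TMM, and miR-28a was among them on both scales. Sums were below WT in 20 hairpins (15.4%) on library totals and in 10 (7.69%) with TMM, which makes 29 (22.3%) and 33 (25.4%) without overlap. For miR-151 the sum was 64.4, 66.9 and 78.8 CPM in WT and 53.7, 60.7, 82.4 and 63.7 CPM in ALAS12-KO, and the groups overlapped. The ratio of the miR-28a sum to the miR-151 sum averaged 1.04 in WT (SD 0.112, n = 3) and 1.36 in ALAS12-KO (SD 0.186, n = 4). That ratio is free of library scaling, and its groups overlapped, with ALAS12-KO replicate 3 (1.12) below WT replicate 1 (1.15).

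The 2 hairpins favoured opposite arms. In WT, miR-28a gave mainly its 3p arm and miR-151 mainly its 5p arm. The 5p arm made up 19.5%, 21.1% and 19.1% of miR-28a reads in WT replicates 1 to 3. In ALAS12-KO it made up 19.5%, 18.7%, 39.1% and 31.2% in replicates 1 to 4. Replicates 1 and 2 of ALAS12-KO were thus within 1 percentage point of the WT range, while replicates 3 and 4 stood above it. The 95% Wilson intervals of the last 2 were 36.8% to 41.6% and 28.8% to 33.6%, and the highest bound of any other library was 23.3%. These intervals cover counting error only, since reads carry no molecular identifiers.

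For miR-151 the 5p share was 88.3%, 91.5% and 91.0% in WT and 88.1%, 93.8%, 83.7% and 83.7% in ALAS12-KO. The minor arm, here the 3p, again took its largest share in ALAS12-KO replicates 3 and 4, with 5p intervals of 81.6% to 85.5% and 81.3% to 85.8%. The lowest bound in WT was 86.2%. In ALAS12-KO replicate 1 the interval was 85.5% to 90.3%, which reached those of replicates 3 and 4. Replicate 2 of ALAS12-KO lay on the other side of WT, with an interval of 91.6% to 95.5%, from only 38 reads of the 3p arm.

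**Figure D2:**
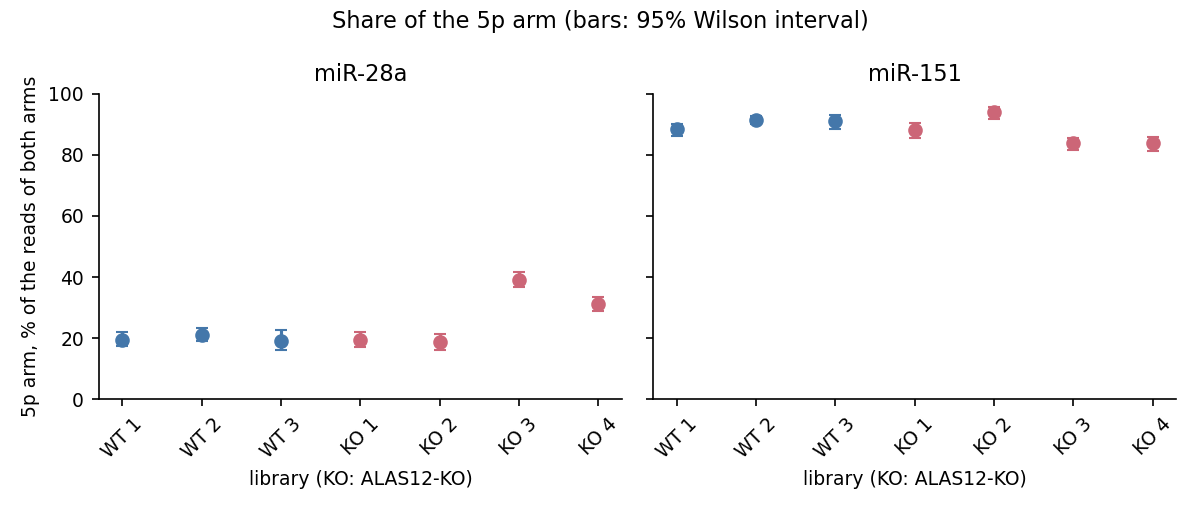
Share of the 5p arm among the reads of both arms, in percent, for miR-28a (left) and miR-151 (right), 1 point per library with its 95% Wilson interval; WT blue, ALAS12-KO (KO) red. miR-28a lies near the WT level in KO 1 and KO 2 and at 39.1% and 31.2% in KO 3 and KO 4, and miR-151 lies at 83.7% in both of the latter.

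As a log2 ratio of 5p to 3p, with 0.5 added to each count, miR-28a averaged −2.00 in WT (SD 0.09, n = 3) and −1.48 in ALAS12-KO (SD 0.72, n = 4). The difference was 0.52 ± 0.38 (SE), and it was 0.24 ± 0.28 (SE) without ALAS12-KO replicate 3 and 0.73 ± 0.35 (SE) without ALAS12-KO replicate 2. miR-151 had 3.22 ± 0.27 (SD, n = 3) and 2.87 ± 0.73 (SD, n = 4). Its difference was −0.34 ± 0.40 (SE), and it was −0.17 ± 0.40 (SE) without ALAS12-KO replicate 3, −0.17 ± 0.41 (SE) without replicate 4 and −0.68 ± 0.22 (SE) without replicate 2. For both hairpins the groups overlapped; of all 130, 7 (5.38%) had every ALAS12-KO library above WT in the minor-to-major ratio and 6 (4.62%) below, 13 (10%) in all. limma called 0 of 130 hairpins (0%) at an adjusted p of 0.05, with 7 at unadjusted p under 0.05, so neither hairpin was called.

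Both hairpins were more evenly balanced than most. The mean log2 of minor over major arm was −1.71 for miR-28a, the 30th most even of 130 hairpins, and −3.02 for miR-151, the 52nd, against a median of −3.87. Their spread between ALAS12-KO libraries, SDs of 0.72 and 0.73, ranked 22nd and 21st of 130, where the median hairpin had 0.38. In WT the SD of miR-28a was 0.09, ranking 105th, and that of miR-151 was 0.27, ranking 48th, where the median was 0.20.

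Hairpins at large did not move to their minor arm in ALAS12-KO replicates 3 and 4, where 67 and 70 of 130 lay above their WT mean. Moves to the minor arm and to the major arm cancel in a median. The median therefore does not show how many hairpins changed their balance. The median shift of all 130 hairpins from their WT means was −0.04, −0.04, 0.06 and 0.01 on the log2 scale in ALAS12-KO replicates 1 to 4. miR-28a shifted by −0.04, −0.11, 1.37 and 0.86, and miR-151 by 0.33, −0.69, 0.86 and 0.86. In replicate 3 miR-28a had the 11th largest shift of 130 and miR-151 the 21st. In replicate 4 they had the 9th and the 10th. In replicate 1, miR-28a ranked 65th and miR-151 19th, and in replicate 2 they ranked 79th and 114th. In WT replicate 1 miR-151, with a shift of 0.31, ranked 13th, higher than in ALAS12-KO replicate 3. Its other WT ranks were 108th and 92nd, and those of miR-28a were 82nd, 32nd and 82nd.

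**Figure D3:**
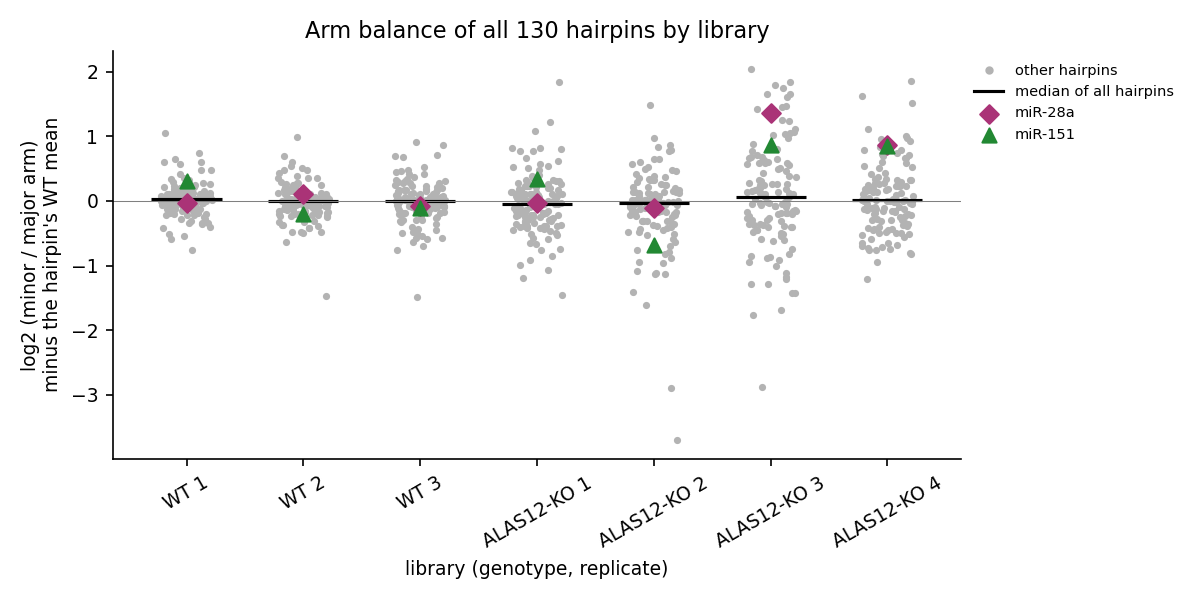
Log2 of minor over major arm minus each hairpin's WT mean, for all 130 hairpins with both arms tested, by library; grey points are the other hairpins and black lines the medians. miR-28a (diamonds) and miR-151 (triangles) lie at −0.21 to 0.31 in WT and at 0.86 to 1.37 in ALAS12-KO replicates 3 and 4, where the medians are 0.06 and 0.01.

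In order of level, miR-28a-3p (60.7 CPM over all 7 libraries) ranked 119th of 1966 names and miR-151-5p (59.5 CPM) 123rd, miR-28a-5p (19.8 CPM) 180th and miR-151-3p (7.76 CPM) 241st. The first 2 of these did not differ beyond their spread between libraries, 4.95 and 8.57 CPM (SD, n = 7), while miR-28a-5p and miR-151-3p lay apart from them in every library. Mature miRNAs are of nearly equal length, so CPM needs no length scaling. The tested miRNAs next to the arms in level were miR-1291 and miR-182-5p for miR-28a-3p, miR-677-5p and miR-376b-3p for miR-151-5p, miR-99a-3p and miR-200b-3p for miR-28a-5p, and miR-1968-5p and miR-744-5p for miR-151-3p.

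The minor arms of the 2 hairpins resembled each other across libraries more than either resembled its own partner. Over the 7 libraries, Pearson's r of the log2 TMM-scaled CPM (with 1 added) was 0.77 between miR-28a-5p and miR-151-3p, 0.07 between the arms of miR-28a and −0.39 between the arms of miR-151. After subtracting each genotype's mean the values were 0.87, −0.87 and −0.45. These values describe 7 libraries, each of which gave all the miRNAs compared, so a library's depth and preparation touch both sides of a pair, and they carry no test.

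The miRNAs most alike to miR-28a-5p, among 221 others with a mean of at least 10 CPM, were miR-872-5p (r = 0.98), miR-378a-3p (0.98) and miR-423-3p (0.97). After subtracting genotype means they were miR-423-3p (0.98), miR-92a-3p (0.97) and miR-362-3p (0.96). miR-423-3p stood at 15.7, 14.6 and 12.4 CPM in WT and at 14.4, 13.9, 40.6 and 31.4 CPM in ALAS12-KO. miR-872-5p stood at 87.4, 72.4 and 81.4 CPM in WT and at 88.4, 78.0, 189 and 141 CPM in ALAS12-KO. On this scale, in both as in miR-28a-5p, ALAS12-KO replicates 1 and 2 were close to WT and replicates 3 and 4 stood well above it.

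The sequences of these miRNAs, where given, are shown beside miR-28a-5p because they share no seed with it; capitals mark bases 2 to 8.
miR-28a-5p: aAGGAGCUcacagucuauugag
miR-872-5p: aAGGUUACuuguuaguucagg
miR-423-3p: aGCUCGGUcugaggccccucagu
miR-92a-3p: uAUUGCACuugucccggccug
miR-362-3p: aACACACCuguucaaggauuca
Of the partners shown, all but miR-92a-3p begin with A, as miR-28a-5p does. A is the first base of 26.1% of the 395 tested miRNAs with a sequence in the table. Of the partners of miR-151-3p named below, miR-484, miR-92a-3p and miR-21a-5p begin with U, and miR-1843b-5p and miR-872-5p with A. miR-28a-3p begins with C.

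miR-151-3p was most like miR-484 (r = 0.92), miR-92a-3p (0.91) and miR-1843b-5p (0.91), and after subtracting genotype means like miR-872-5p (0.96), miR-21a-5p (0.95) and miR-1843b-5p (0.92). miR-872-5p and miR-92a-3p, the latter a member of the miR-17-92 cluster, were thus named for both minor arms. miR-92a-3p stood at 437, 410 and 369 CPM in WT and at 337, 286, 772 and 666 CPM in ALAS12-KO. As with miR-151-3p, ALAS12-KO replicate 2 was its lowest library and replicate 3 its highest.

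The major arms of miR-28a and miR-151 had other partners. Most partners of their minor arms were not minor arms themselves. miR-872-5p, miR-378a-3p, miR-362-3p, miR-1843b-5p and miR-21a-5p were the more abundant arms of their hairpins, and miR-423-3p was the less abundant. For miR-92a-3p and miR-484 no such arm was assigned. miR-28a-3p was most like let-7f-2-3p (r = 0.99), miR-378a-5p (0.98) and miR-192-5p (0.98), a hepatocyte miRNA, and the same 3 were named after subtracting genotype means. Over the 7 libraries, miR-378a-3p was named for the 5p arm of miR-28a and miR-378a-5p for the 3p arm. After subtracting genotype means, miR-378a-5p was still named for the 3p arm, but miR-378a-3p was not named for the 5p arm. miR-151-5p had no close partner: its highest values were 0.78 for miR-141-3p, 0.72 for miR-674-5p and 0.65 for let-7d-3p. After subtracting genotype means they were 0.84 for miR-141-3p, 0.84 for miR-200a-3p, both of the epithelial miR-200 family, and 0.83 for let-7d-3p.

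**Figure D4:**
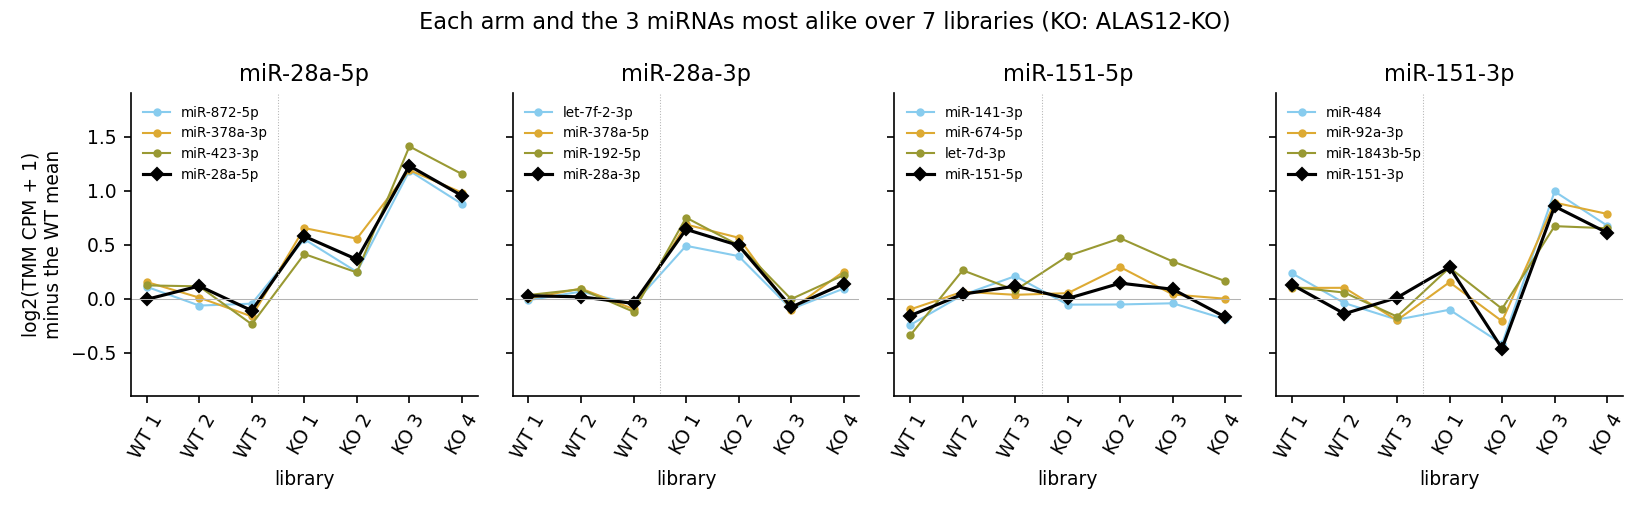
Log2(TMM-scaled CPM + 1) minus the WT mean by library (KO: ALAS12-KO), for each arm (black diamonds) and the 3 miRNAs with the highest Pearson's r with it over 7 libraries (coloured). The lines of miR-28a-5p and its partners peak in KO 3 and KO 4, those of miR-28a-3p in KO 1 and KO 2.

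The first base was examined across all tested miRNAs after these sequences had been seen. The 103 miRNAs that begin with A had median shifts from the WT mean of −0.01, −0.07, 0.26 and 0.21 on the log2 TMM scale in ALAS12-KO replicates 1 to 4. The 86 that begin with C had 0.05, 0.09, −0.09 and 0.01, and the 175 that begin with U had 0.03, 0.04, −0.09 and −0.01. The 31 that begin with G had 0.20, 0.28, 0.02 and −0.00, so their median was higher in replicates 1 and 2, while that of miRNAs beginning with A was higher in replicates 3 and 4. The quartiles overlapped. In replicate 3 they were −0.13 and 0.79 for A and −0.29 and 0.18 for U. In replicate 2 they were −0.41 and 0.66 for G and −0.48 and 0.25 for A. miR-28a-5p itself shifted by 0.58, 0.36, 1.23 and 0.95, which is above the median of miRNAs of its first base by 0.59, 0.44, 0.97 and 0.74. miR-28a-3p shifted by 0.64, 0.49, −0.08 and 0.14, which differs from the median of miRNAs of its first base by 0.60, 0.40, 0.01 and 0.13. The part of the first base in the arm values was not tested.

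ALAS12-KO replicates 3 and 4 differed from replicates 1 and 2 in some other measures, but not in all. Hepatocyte markers took 69.3% and 67.3% of miRNA reads in replicates 1 and 2 and 60.7% and 63.2% in replicates 3 and 4. Endothelial markers took 1.10% and 2.55%, and then 3.65% and 2.96%. The miRNA read total was 13173025 and 10093244, and then 17091539 and 16383220. Cholangiocyte markers, at 0.00544% and 0.00873% and then 0.0105% and 0.00759%, did not separate the pairs. Neither did the share of miRNA reads among counted reads, at 37.2% and 23.2% and then 34.8% and 38.6%. In WT, hepatocyte markers took 63.4% to 66.2%, endothelial markers 3.56% to 5.25%, and the miRNA read total was 7719180 to 21962191. The 5p share of miR-28a in WT was 19.1% to 21.1%. The part of these measures in the arm shares was not tested.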

How the data were processed

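Small RNA libraries from mouse hepatocytes, 3 of WT and 4 of ALAS12-KO, each had 1 table of read counts per mature miRNA, deposited by the authors without normalization, as read from the whole-number values. The submitters' processing notes name cutadapt and limma and the builds mm10 and hg38, with no role. Which aligner, counter, miRNA annotation and strand setting made the counts is not given in the sources used here. Library sizes were summed over miRNAs, without the 5 summary entries. Reads outside any miRNA were 50.9% to 73.7% of counted reads and unaligned reads 4.54% to 8.00%. Nothing in the labels ties replicates to separate animals, so tests measure only the spread between libraries.

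CPM was computed on summed miRNA counts. Fold changes came from edgeR 4.0.16 in R 4.3.3 (TMM, filterByExpr with minimum count 10, robust quasi-likelihood fit, Benjamini-Hochberg threshold 0.05) and arm ratios from limma 3.58.1, each fitted across all features. DESeq2 1.42.0, limma-voom, other scalings, other filters, a block for the replicate number and the removal of each library were alternatives. Libraries of 1 genotype were not copies of each other: between them, chi-square over its degrees of freedom was 113 to 1220. In ALAS12-KO it was 318 between replicates 1 and 2, 152 between replicates 3 and 4 and 312 between replicates 2 and 4.

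The arms, relatives and marker lists were chosen with earlier results of these data known. Named were the 4 arms, their relatives, the top marker, the neighbours in level and, for each arm, the 3 miRNAs of highest Pearson's r. Positions came from GENCODE M21, and sequences from RefSeq tables, which matched 395 of 450 tested miRNAs, read with Python 3.11.15. Control RNAs added to the samples were not used here, so a change shared by all miRNAs would not show.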

Additional observations from a re-analysis of the deposited data

How the results depend on the processing

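The count of miRNAs called by edgeR was 0 and stayed at 0 with DESeq2 size factors, upper-quartile factors, the stricter filter of a mean CPM of 10, limma-voom and the replicate block. It was 2 with library totals, 13 without a filter (1302 miRNAs tested) and 22 with DESeq2, and ran from 0 to 1 when each library was left out, with 1 call without ALAS12-KO replicate 2. The cause was not tested. Library totals moved the median log2 fold change of all miRNAs from 0.06 to −0.12. Of the 4 arms, miR-28a-5p was called by DESeq2 alone. The log2 fold changes of miR-28a-5p (0.62 to 0.97 when each library was left out), miR-28a-3p (0.18 to 0.37) and miR-151-3p (0.18 to 0.66) kept their sign in every alternative run. That of miR-151-5p, 0.02, changed sign with library totals (−0.16), DESeq2 size factors (−0.0014), upper-quartile factors (−0.06), no filter (−0.02), the stricter filter (−0.12) and DESeq2 (−0.00049), and ran from −0.08 to 0.06 when each library was left out. Its direction is therefore not given. Arm ratio differences kept their sign in every alternative, from 0.24 to 0.73 for miR-28a and from −0.68 to −0.17 for miR-151 when each library was left out. They were 0.51 and −0.34 with 5 added to each arm, and as a change of the 5p share 7.19 and −2.92 percentage points. No hairpin was called by limma in any alternative, with 4 to 20 at unadjusted p under 0.05. miR-151-3p fell below the stricter filter and has no value there.

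Same-numbered libraries of the 2 genotypes had r of −0.0172, −0.484 and 0.0313 between their deviations from the genotype means. Libraries of unlike number had r of −0.351 to 0.555. So few libraries cannot decide whether the numbers pair them, and the labels do not say. With a replicate block, the log2 fold changes were 0.76 for miR-28a-5p, 0.36 for miR-28a-3p, 0.08 for miR-151-5p and 0.25 for miR-151-3p, the arm ratio differences 0.41 and −0.17, and 0 miRNAs and 0 hairpins were called. WT has no replicate 4, so ALAS12-KO replicate 4 was alone in its block and added nothing to these genotype differences. The arm ratio differences were the same, 0.41 and −0.17, when that library was left out. Depth limits miR-151-3p most, whose lowest count was 38 reads, in ALAS12-KO replicate 2.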
